A study of Homo sapiens with 12 samples.

Results

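Enzymes of phase I and phase II xenobiotic metabolism were followed in RPMI2650, a human epithelial line derived from a nasal septum tumour. The set was defined by gene symbol. It takes the cytochrome P450 genes (CYP) whose symbol begins with CYP1 to CYP4, and the UDP-glycosyltransferase (UGT) families UGT1, UGT2, UGT3 and UGT8. It also takes all sulfotransferases (SULT), the glutathione S-transferases (GST) of the A, M, O, P, T, Z and K classes, and all aldehyde dehydrogenases (ALDH). Of 196 symbols that matched, 189 had no hyphen and 122 of these were not described as pseudogenes, out of 50868 genes in the table. These 122 genes were 52 CYPs, 22 UGTs, 19 ALDHs, 16 GSTs and 13 SULTs. Because the pattern is one of letters, 16 of the CYPs belong to families numbered with 2 digits, such as CYP11 and CYP27, which mostly make or break down steroids, vitamin D and retinoids. One entry, CYP4F33P, has a symbol ending in P and was kept by its description.

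The study asked how perfluorinated acids of different chain length act on nasal epithelial cells. Wild-type RPMI2650 cells at an air-liquid interface received 1 µM perfluorobutanoic acid (PFBA), 1 µM perfluorohexanoic acid (PFHxA), which has the longer chain, or neither. Cells with an acid were collected after 7 days, and the labels give no time for those with neither. The labels call the untreated group "Control" and do not say whether it received a vehicle. Each of the 3 groups has 4 RNA-seq libraries, which are named here by group and by the letter a to d of their table column. All come from 1 cell line, and nothing says that the libraries of a group came from separate cultures, so the p-values measure only the spread between these libraries, which may be technical.

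Phase I enzymes introduce or expose a reactive group on a substrate. CYPs do so by oxidation with electrons from NADPH-cytochrome P450 reductase, and ALDHs turn reactive aldehydes into carboxylic acids. Phase II enzymes then attach glutathione (GSTs), sulfate (SULTs) or a sugar (UGTs), which makes the product easier to export. In the nose these enzymes act on inhaled chemicals and on odorants, and several are known targets of the aryl hydrocarbon receptor, of NRF2 or of nuclear receptors.

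Library totals lay between 16941599 and 21879105 counts. The 122 enzymes took 0.145% to 0.158% of a library's counts. Of 10 epithelial markers 9 reached 1 CPM (read counts scaled to library size by TMM factors), the exception being KRT14 at 0.495 CPM, and the line also carried 676.8 CPM of VIM, a mesenchymal filament gene. Of 9 mesenchymal markers 5 reached 1 CPM, namely VIM, FN1, PDGFRB, ZEB1 and COL1A1. Of 8 ciliated or secretory airway markers 4 did (FOXJ1, TPPP3, MUC5AC and MUC5B), while SCGB1A1 and SCGB3A1 had no count in any library. None of 5 markers of olfactory sustentacular cells and none of 5 leukocyte markers reached 1 CPM, while 2 of 5 hepatocyte and 1 of 4 endothelial markers did (APOA1, SERPINA1 and CDH5). The PFHxA libraries differed from the others in base composition: the slope of a library's deviation over transcript GC content was 0.0674 to 0.0984 log2 per 10 GC points in PFHxA, -0.0621 to -0.00849 in control and -0.0683 to -0.00362 in PFBA. Their mitochondrial share of counts was 11.7% to 12.9%, against 9.15% to 11.9% in control, where control d was lowest, and 11.1% to 11.7% in PFBA.

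Of the 122 enzymes 36 were expressed, taken as a mean of 1 CPM or more over the 12 libraries, which is 29.5%. The families differed widely in how many of their members this included. It was 13 of 19 ALDHs, 9 of 16 GSTs and 10 of 52 CYPs, but only 3 of 13 SULTs and 1 of 22 UGTs. Among CYPs of families 1 to 4 it was 5 of 36, and among those with 2-digit family numbers 5 of 16. Just above the threshold lay ALDH3B1 at 1.70 CPM and SULT1C2 at 1.38 CPM, and just below it CYP26B1 at 0.844 CPM and CYP2D6 at 0.752 CPM. At the other end 37 enzymes had no count in any library, and 59 lay under 0.1 CPM. No count in 234028385 pooled counts allows a level of up to 0.0128 CPM, a limit of 3 counts. It covers counting error only, because these reads carry no molecular identifiers and duplicates are not separate molecules.

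**Figure D1:**
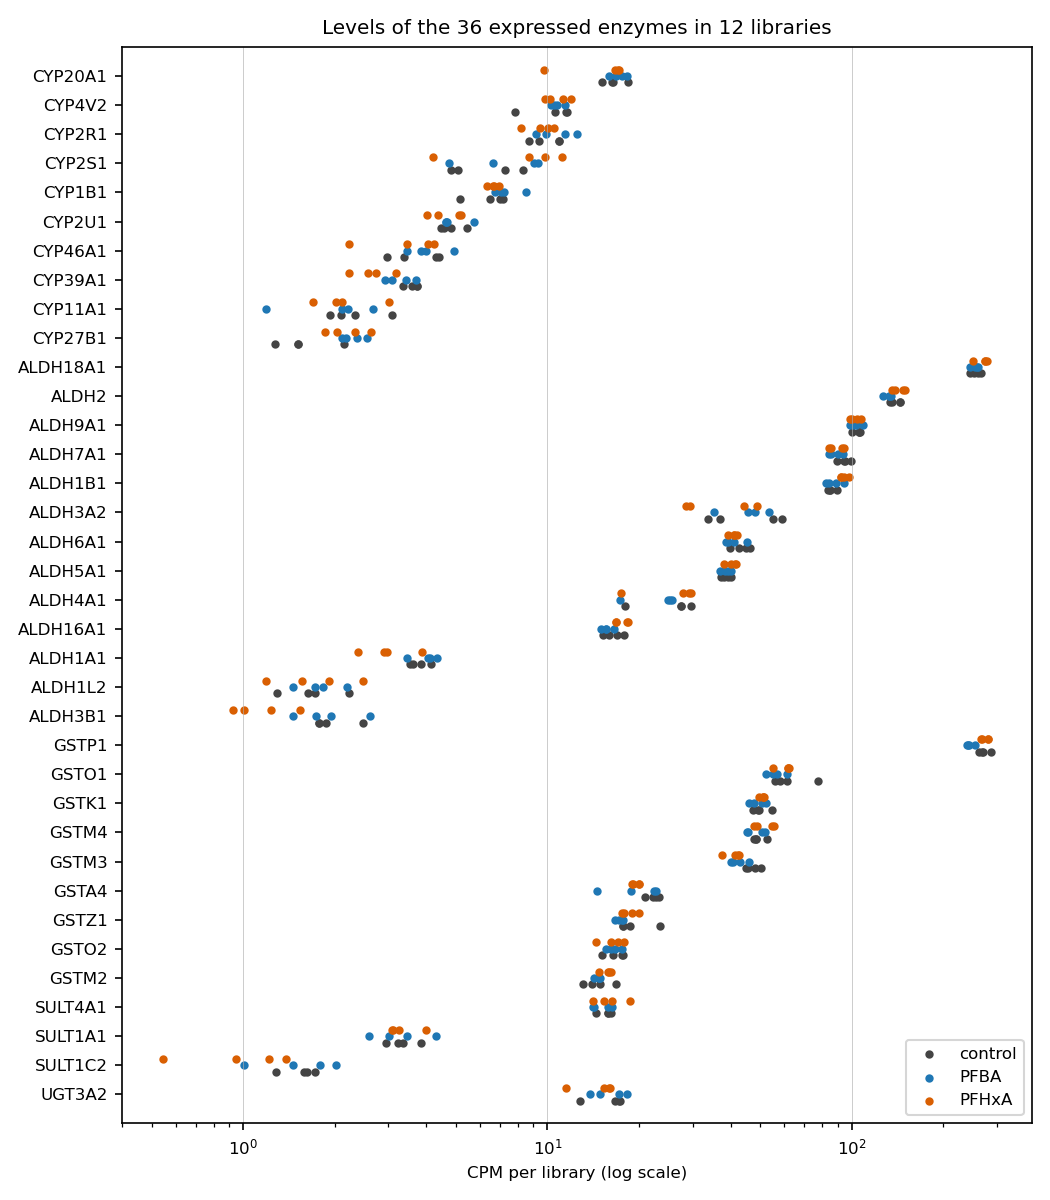
Level of each of the 36 expressed enzymes in CPM on a log axis, 1 point per library, in the 3 groups (control, PFBA and PFHxA, 4 libraries each). Families are stacked from CYP at the top to UGT at the bottom, and points of 1 gene lie close together for most genes but spread widely for ALDH3A2 and CYP2S1.

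Many classical drug-metabolising enzymes of liver were at or near 0. Low but measurable were CYP2D6 at 0.752 CPM and CYP2E1, which oxidises ethanol, at 0.747 CPM, each with counts in all 12 libraries and neither passing in any comparison. Both overlap genes of higher level. CYP2E1 overlaps SCART1 (2.07 CPM) by 3153 bases on the same strand. CYP2D6 overlaps NDUFA6-DT (3.08 CPM) by 4408 bases on the opposite strand. The part of those genes in these counts was not tested. CYP1A2, CYP2A6, CYP2B6, CYP2C19, CYP2A13 and CYP2F1 had no count, the last pair being CYPs known from the airways. No CYP3 gene was expressed. CYP3A5 had 0.0562 CPM, CYP3A7 0.0259 CPM and CYP3A4, the main drug oxidase of liver, 0.0169 CPM. CYP1A1, a sensitive target of the aryl hydrocarbon receptor, averaged 0.390 CPM with counts in 11 of 12 libraries, and PFBA a was the library at 0. It did not enter the test. Its group means were 0.429 ± 0.144 CPM in control, 0.331 ± 0.246 CPM in PFBA and 0.410 ± 0.118 CPM in PFHxA (SD, n = 4 each), which differ by less than the spread within groups. At this depth 3 counts in 1 library correspond to 0.137 to 0.175 CPM, so small changes could not be seen.

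Expressed CYPs of families 1 to 4 were CYP4V2, a fatty acid hydroxylase (10.6 CPM), CYP2R1, a vitamin D hydroxylase of liver and other tissues (10.1 CPM), CYP2S1 (7.42 CPM), CYP1B1, which oxidises oestrogens and polycyclic hydrocarbons (6.82 CPM), and CYP2U1 (4.80 CPM). From the 2-digit families came CYP20A1 (16.3 CPM), the cholesterol hydroxylase CYP46A1 (3.77 CPM), the oxysterol hydroxylase CYP39A1 (3.18 CPM), the side-chain cleavage enzyme CYP11A1 (2.20 CPM) and CYP27B1, which activates vitamin D (2.04 CPM).

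CPM does not compare genes of different length, so levels were also divided by the length of each gene's merged exons in GENCODE 29. On that scale GSTP1 led with 138.0 CPM per kilobase, followed by ALDH18A1 (69.1), GSTO1 (35.5), ALDH9A1 (31.3) and ALDH1B1 (28.3). GSTP1 is the pi-class transferase abundant in epithelia and many tumours, and GSTO1 the omega-class enzyme that also reduces dehydroascorbate. ALDH18A1 makes the precursor of proline and is an ALDH by sequence rather than a detoxifying enzyme, whereas ALDH9A1 acts on aldehydes that include a carnitine precursor.

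In the other families the leading genes were far lower. Among CYPs CYP20A1 was highest with 5.30 CPM per kilobase, then CYP2S1 with 2.58. SULT4A1, a sulfotransferase best known from brain, had 5.48 CPM per kilobase and SULT1A1, the main phenol sulfotransferase, 0.376. UGT3A2 had 5.78 CPM per kilobase, and the next UGT, UGT2A1, 0.113. Length changed some ranks: ALDH7A1 was 5 by CPM and 18 per kilobase among the 122 enzymes, and GSTA4 was 15 by CPM and 8 per kilobase, both named after their values were seen.

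UGT3A2 was the only UGT of the 22 to reach 1 CPM. All 9 UGT1 genes and 5 of 10 UGT2 genes had no count. The UGT1 genes are transcripts of 1 locus that share their last exons, and 33.7% to 77% of their 75-base windows also occur in transcripts of another gene. A counting program that drops reads shared by genes would lose such reads. No source used here names the program or its settings. The part of shared sequence in these zeros was not tested. The same holds for SULT1A3 and SULT1A4, where 98.6% and 99.0% of windows are shared, and for UGT2A2 with 93.0%. Of the liver CYPs named above, CYP3A7 shares 53.8% of its windows, CYP2C19 46.0%, CYP2D6 24.8% and CYP2A6 23.8%.

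Other genes of drug metabolism were read from 6 lists with 101 genes outside the enzyme set. The electron donor POR was present at 59.6 CPM. Among the receptors that switch such enzymes on in liver, NR1I2 (the pregnane X receptor) had 0.0428 CPM, NR1I3 (the constitutive androstane receptor) 0.0124 CPM and HNF4A 0.0337 CPM. Not all receptors of that list were near 0. The nuclear receptor PPARA had 14.3 CPM, with 56.6 CPM in PFHxA b and 7.76 to 12.9 CPM in the other libraries. The aryl hydrocarbon receptor AHR had 2.82 CPM and its partner ARNT 70.2 CPM. KEAP1, the inhibitor of NRF2, had 58.1 CPM. NFE2L2, which encodes NRF2, varied widely: it had 39.9, 106.9, 113.3 and 104.0 CPM in control a to d, 41.2, 32.5, 40.2 and 52.1 CPM in PFBA and 44.9, 71.0, 82.7 and 30.7 CPM in PFHxA. Control a lay among the PFBA values, and the difference of -1.13 log2 with PFBA did not pass (adjusted p = 0.401 by edgeR).

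With PFBA none of the 46 enzymes that entered the test passed it. The test was edgeR's quasi-likelihood F test on the counts with Benjamini-Hochberg adjustment over 16554 genes and a threshold of 0.05. It called 1 gene in all, 0.00604% of those tested, so a count of 0 enzymes does not set them apart. DESeq2 and limma-voom also called 0 of the enzymes. At an unadjusted p under 0.05 there were 3 enzymes, GSTP1, CYP27B1 and GSTM3, where 9.86% of all tested genes reached that level. Of the 36 expressed enzymes 33 had a 95% interval within 1.5-fold in either direction, a share of 91.7%, beside 82.3% of the 14605 tested genes at 1 CPM or more.

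GSTP1 had 261.9, 269.7, 269.1 and 286.6 CPM in control a to d. In PFBA a to d it had 243.5, 240.8, 239.4 and 255.4 CPM. The 4 PFBA libraries all lay below the 4 controls. In such bulk libraries fewer cells that express a gene and less RNA per cell cannot be told apart. The fitted difference was -0.15 ± 0.0390 log2 (SE, n = 4 and 4, edgeR), with an interval of -0.24 to -0.07 and an adjusted p of 0.304, so it did not pass.

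CYP27B1 had 2.15, 1.27, 1.51 and 1.52 CPM in control a to d and 2.37, 2.10, 2.55 and 2.17 CPM in PFBA a to d. Control a lay among the PFBA values. The difference of 0.51 ± 0.178 log2 (SE) had an adjusted p of 0.394 by edgeR. The gene overlaps METTL1, which had 10.5 CPM, by 516 bases on the same strand, though no 75-base window of its longest transcript occurs in another gene's transcripts. GSTM3, a mu-class transferase, was at -0.16 ± 0.0605 log2 (SE) with an adjusted p of 0.435 by edgeR.

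The expressed GSTs leaned one way in PFBA without passing the test. All 9 were fitted lower than control, with a median of -0.15 log2, beside 50.9% of all tested genes fitted lower and a median of -0.0026 log2 over them. Some were hardly moved, such as GSTM4 at -0.028 log2 and GSTK1 at -0.029 log2. The lean was not particular to GSTs. Fitted lower were 10 of 13 other phase II enzymes, 8 of 10 CYP partners and 18 of 26 other phase I enzymes. Over the 6 lists 48 of 78 tested genes were lower and 30 higher, with 11 of 13 receptors and regulators higher. With upper-quartile scaling 8 of the 9 GSTs were lower. Their family's summed level was 543.8 to 583.9 CPM in control, 505.2 to 517.7 CPM in PFBA and 531.1 to 564.6 CPM in PFHxA, and GSTP1 made up the largest part of each sum. Only PFBA lay apart. The summed level of the 10 epithelial markers was also lowest in PFBA, at 2775 to 2812 CPM in control, 2566 to 2685 in PFBA and 2812 to 3022 in PFHxA, and its part in the GST levels was not tested. KRT5, a basal keratin with a mean of 1926 CPM, makes up most of that sum, and not every marker followed it: CDH1 was fitted at 0.37 log2 and CLDN4 at 0.39 log2 with PFBA, and neither passed. Among expressed CYPs 8 of 10 were fitted higher with PFBA, with a median of 0.08 log2, and among ALDHs 4 of 13, with a median of -0.02 log2. With the GC and length trend removed these were 6 of 10 and 3 of 13. The 4 PFBA and 4 control libraries did not overlap for 2 of the 36 expressed enzymes, GSTP1 and GSTZ1, beside 5.96% of all tested genes.

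**Figure D2:**
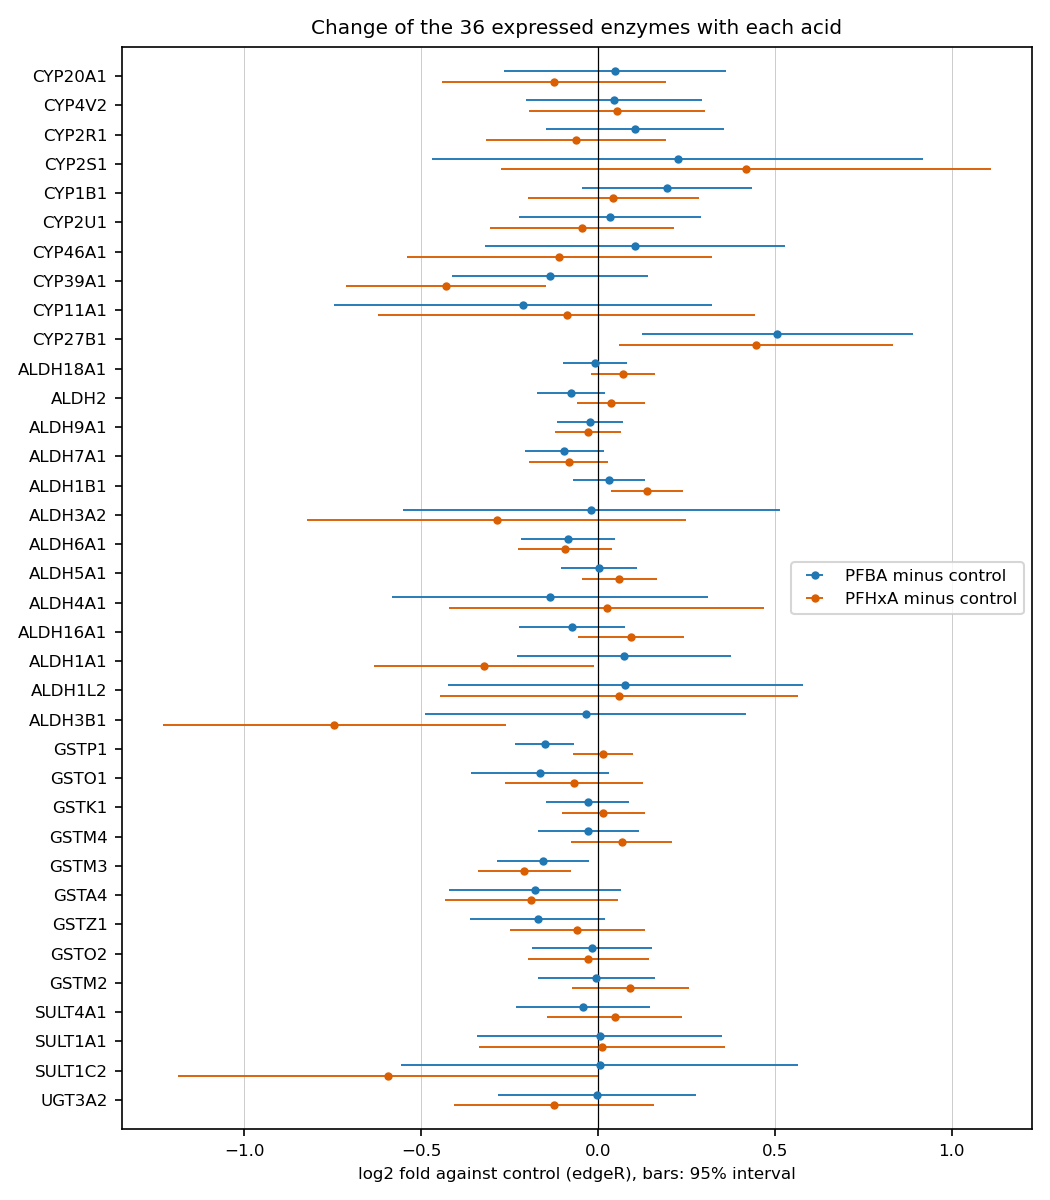
Fitted log2 fold change against control of the 36 expressed enzymes with PFBA (blue) and with PFHxA (orange), with bars for the 95% interval from edgeR. Most intervals cross 0. Those of ALDH3B1, CYP39A1, GSTM3 and ALDH1A1 lie below it with PFHxA and those of GSTP1 and GSTM3 with PFBA, those of CYP27B1 lie above it with both acids and that of ALDH1B1 with PFHxA, and both comparisons use the same 4 control libraries.

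With PFHxA 3 of 46 tested enzymes passed, a share of 6.52%, where 14.9% of all tested genes did. All 3 were lower than control: ALDH3B1, CYP39A1 and GSTM3. Among all tested genes 8.82% fell and 6.08% rose. No expressed UGT or SULT passed. At an unadjusted p under 0.05 there were 6 enzymes, where 28.5% of all tested genes reached it. The median of the 36 expressed enzymes was -0.03 log2, and 28 of them had an interval within 1.5-fold, 77.8% beside 77.9% of genes at 1 CPM or more.

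ALDH3B1 oxidises aldehydes that arise from lipid peroxidation. It had 2.47, 1.77, 1.78 and 1.87 CPM in control a to d, 1.46, 1.94, 1.73 and 2.61 CPM in PFBA, and 0.929, 1.53, 1.01 and 1.24 CPM in PFHxA. Every PFHxA library lay below every control, and PFBA d was the highest of all 12. The fall with PFHxA was from 1.97 ± 0.335 CPM (SD, n = 4) to 1.18 ± 0.271 CPM (SD, n = 4). On the log2 scale it was -0.75 ± 0.224 (SE) with an adjusted p of 0.0407 by edgeR.

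CYP39A1 had 3.73, 3.60, 3.34 and 3.74 CPM in control a to d. It had 2.92, 3.08, 3.42 and 3.70 CPM in PFBA and 2.57, 3.17, 2.74 and 2.22 CPM in PFHxA. The PFHxA values again lay below the lowest control, while PFBA spanned the gap between the groups. CYP39A1 fell by 0.43 ± 0.132 on the log2 scale (SE), with an adjusted p of 0.0434 by edgeR.

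GSTM3 was the most abundant of the 3. It had 48.2, 45.0, 45.7 and 50.3 CPM in control a to d, 40.1, 42.8, 40.8 and 45.9 CPM in PFBA, and 42.3, 42.6, 41.3 and 37.4 CPM in PFHxA. All PFHxA libraries were below the controls, and so were 3 of 4 PFBA libraries. GSTM3 fell by 0.21 ± 0.0607 on the log2 scale (SE) with PFHxA, with an adjusted p of 0.0354 by edgeR. No 75-base window of GSTM3 occurs in a transcript of another gene. It lies within the locus of GSTM5 on the other strand, which had 0.0183 CPM.

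**Figure D3:**
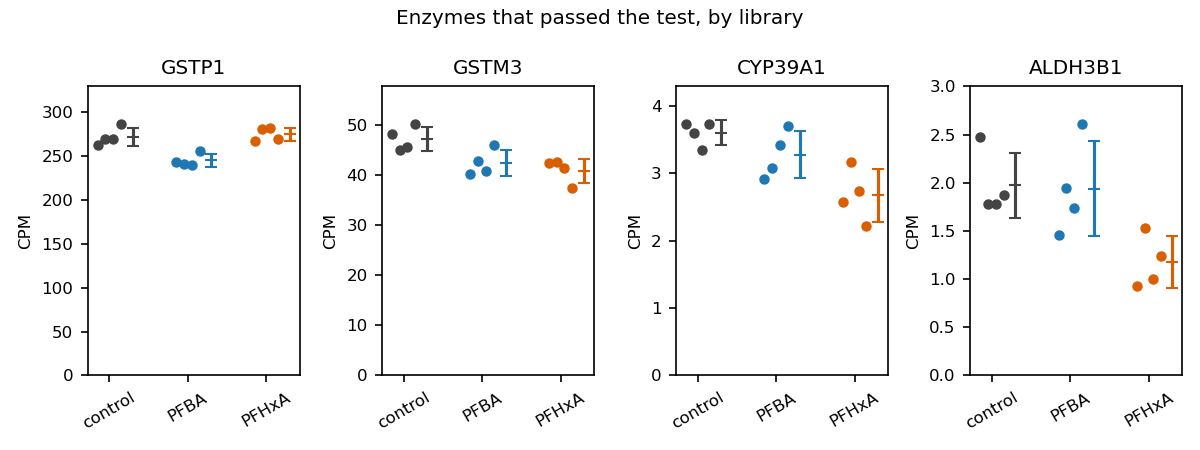
CPM of GSTP1, GSTM3, CYP39A1 and ALDH3B1 in each library of the 3 groups, on axes that start at 0, with the group mean and SD (n = 4) beside the points. GSTP1 is lowest in PFBA, and the other genes are lowest in PFHxA by their group means.

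None of these 3 calls held in every fit. Each was lost without control d, without PFHxA c or without PFHxA d. GSTM3 was also lost without control a or PFHxA b, and ALDH3B1 and CYP39A1 also without control a, b or c, PFHxA a, or PFBA b or c, the last pair being outside the comparison but in the same fit. All 3 calls were also lost with no filter on low counts, and those of GSTM3 and CYP39A1 when only the 8 libraries compared were fitted. DESeq2 called GSTM3 and gave no adjusted p to CYP39A1 or ALDH3B1, while limma-voom called all 3. The lowest and highest adjusted p over the 12 fits that leave out 1 library were 0.0294 and 0.105 for GSTM3, 0.0329 and 0.119 for CYP39A1, and 0.0283 and 0.120 for ALDH3B1, all by edgeR.

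The calls were also set against the GC trend that marks the PFHxA libraries. The GC content of the longest transcript is 38.3% for CYP39A1, 45.6% for GSTM3 and 59.5% for ALDH3B1. With the trend over GC content and length taken out of every library, none of the enzymes passed (edgeR), while 433 of all tested genes did. CYP39A1 then stood at -0.19 log2 with an adjusted p of 0.497, GSTM3 at -0.20 log2 with 0.116, and ALDH3B1 at -0.91 log2 with 0.0536. CYP39A1 was thus reduced by more than 1.5 times, GSTM3 hardly moved and ALDH3B1 lay further from 0.

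**Figure D4:**
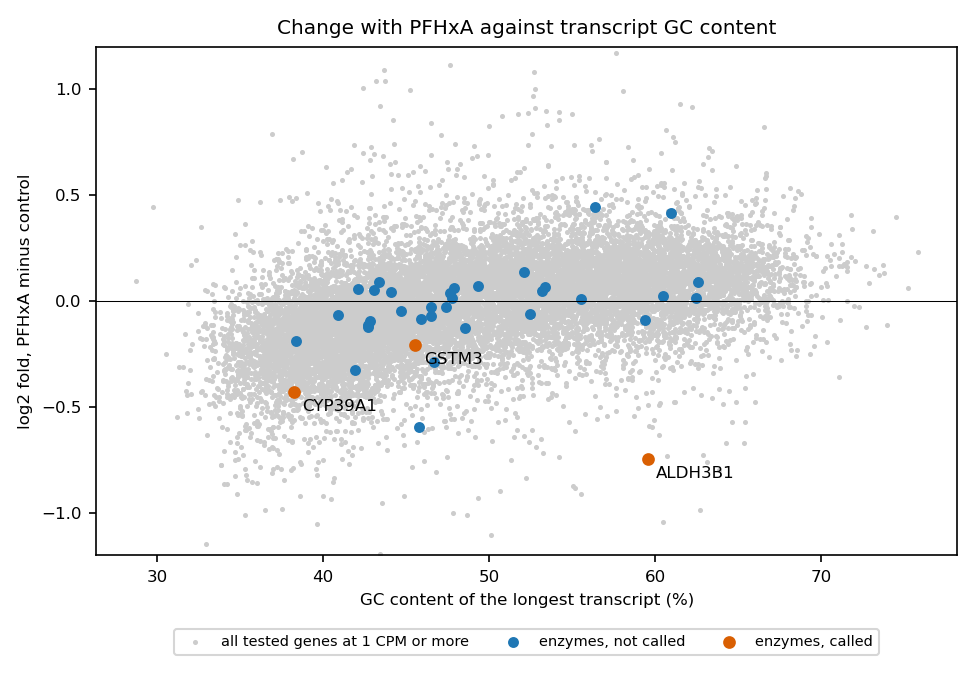
Log2 fold change of PFHxA over control against GC content of the longest transcript for 14544 tested genes at 1 CPM or more (grey), with expressed enzymes in blue and the 3 that passed in orange. The grey cloud climbs with GC content, CYP39A1 lies near it at low GC, and ALDH3B1 lies below it at high GC; 33 genes fall outside the axis limits of 1.2 log2.

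Other enzymes with a small p in PFHxA against control did not pass. ALDH1B1, a mitochondrial ALDH, had 84.8, 89.5, 85.1 and 83.4 CPM in control a to d and 92.5, 94.5, 92.6 and 97.8 CPM in PFHxA. The groups did not overlap, with a difference of 0.14 ± 0.0473 log2 (SE) and an adjusted p of 0.0673 by edgeR, and DESeq2 called it with 0.0441, as did edgeR without PFBA b (0.0424). CYP27B1 was at 0.45 ± 0.18 log2 (SE), and ALDH1A1, which makes retinoic acid, at -0.32 ± 0.145 log2 (SE), with adjusted p of 0.117 and 0.161 by edgeR. Without control a CYP27B1 passed at 0.63 log2 with an adjusted p of 0.0378, and without PFHxA a ALDH1A1 passed at -0.46 log2 with 0.0379, both by edgeR. In the other fits that gave an adjusted p none of these 3 passed, and with the GC and length trend removed ALDH1B1 was at 0.09 log2 (adjusted p = 0.316), ALDH1A1 at -0.16 log2 (0.598) and CYP27B1 at 0.38 log2 (0.312). SULT1C2 was at -0.59 log2 with an interval of -1.19 to 0.00022. Groups did not overlap for 5 of the 36 expressed enzymes, the 3 that passed, ALDH1B1 and GSTA4, beside 20.7% of all tested genes.

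The direct comparison of the 2 acids, at the same dose and time, called 1 of 46 tested enzymes, 2.17% beside 10.9% of all tested genes. This was GSTP1, which was higher with PFHxA, a direction in which 3.84% of all genes passed, while 7.07% passed as lower. GSTP1 had 267.0, 280.3, 281.3 and 268.8 CPM in PFHxA a to d, all above the 4 PFBA libraries. Group means were 271.8 ± 10.5 CPM in control, 244.8 ± 7.30 CPM in PFBA and 274.4 ± 7.48 CPM in PFHxA (SD, n = 4 each). The difference between the acids was 0.16 ± 0.0390 log2 (SE), with an interval of 0.08 to 0.25 and an adjusted p of 0.0168 by edgeR.

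That call too depended on single libraries. It was lost without PFBA c (adjusted p = 0.0558), PFHxA b (0.0533) or PFHxA c (0.0519), all by edgeR. GSTP1 has a GC content of 62.5%, and with the GC and length trend removed its difference between the acids was 0.07 log2 with an adjusted p of 0.452. The epithelial marker sum given above, mostly KRT5, was also higher in PFHxA than in PFBA, and its part in the GSTP1 difference was not tested. KRT5 itself passed between the acids, at 0.18 log2 (adjusted p = 0.0117 by edgeR). EPCAM (-0.15 log2), CDH1 (-0.23), CLDN4 (-0.12) and ESRP1 (-0.05) were fitted the other way between the acids, and none of them passed. Against control EPCAM did pass as lower with PFHxA (-0.18 log2, adjusted p = 0.0384 by edgeR). The calls of KRT5 and EPCAM are given from the main fit only, without the GC and length trend removed. Their transcripts have 56.8% and 47.0% GC.

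For the other enzymes no difference between the acids passed, and 28 of the 36 expressed ones had an interval of that difference within 1.5-fold, a share of 77.8% beside 79.4% of genes at 1 CPM or more. At an unadjusted p under 0.05 there were 9 enzymes, where 26.6% of all tested genes reached it. With PFHxA less PFBA, ALDH3B1 was at -0.71 ± 0.224 log2 (SE, adjusted p = 0.0588) and ALDH1A1 at -0.40 ± 0.144 log2 (SE, adjusted p = 0.0939), both by edgeR. ALDH3B1 passed without PFBA a at -0.83 log2 (0.0473), and ALDH1A1 passed without PFHxA a at -0.53 log2 (0.0232). ALDH1A1 had 4.10, 3.45, 4.05 and 4.34 CPM in PFBA a to d and 3.88, 2.38, 2.91 and 2.97 CPM in PFHxA a to d, so PFHxA a lay among the PFBA values. Groups did not overlap for 3 expressed enzymes, GSTP1, ALDH2 and ALDH16A1, beside 20.0% of all tested genes.

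The promoters of the 4 enzymes that passed in any comparison are shown because their start regions can be read against the letters of known response elements. Each is the 250 bases before the RefSeq start site on GRCh38.p14, 5′ to 3′ on the gene's strand: chr11:67583562-67583811 (plus strand) for GSTP1, chr1:109741039-109741288 (minus) for GSTM3, chr6:46652819-46653068 (minus) for CYP39A1 and chr11:68008297-68008546 (plus) for ALDH3B1. The genes themselves are at chr11:67583595-67586660, chr1:109733932-109741038, chr6:46549580-46652830 and chr11:68008578-68029282 in the deposited table (GRCh38), in the same order, so the windows of GSTP1 and CYP39A1 lie partly inside the annotated gene. Capitals mark matches to either of the motifs named next.
GSTP1: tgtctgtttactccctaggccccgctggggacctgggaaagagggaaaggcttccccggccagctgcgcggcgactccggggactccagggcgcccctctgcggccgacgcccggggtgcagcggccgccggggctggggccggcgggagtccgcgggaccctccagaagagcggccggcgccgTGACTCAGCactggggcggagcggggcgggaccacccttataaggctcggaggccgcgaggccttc
GSTM3: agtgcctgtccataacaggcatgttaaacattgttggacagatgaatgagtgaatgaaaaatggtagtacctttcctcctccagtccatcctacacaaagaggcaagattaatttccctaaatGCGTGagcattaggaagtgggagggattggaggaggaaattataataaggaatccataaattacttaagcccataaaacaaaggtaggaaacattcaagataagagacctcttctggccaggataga
CYP39A1: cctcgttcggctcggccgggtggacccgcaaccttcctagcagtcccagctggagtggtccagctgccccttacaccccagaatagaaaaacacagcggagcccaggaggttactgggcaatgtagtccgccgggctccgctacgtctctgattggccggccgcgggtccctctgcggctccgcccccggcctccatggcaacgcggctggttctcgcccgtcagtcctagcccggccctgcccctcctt
ALDH3B1: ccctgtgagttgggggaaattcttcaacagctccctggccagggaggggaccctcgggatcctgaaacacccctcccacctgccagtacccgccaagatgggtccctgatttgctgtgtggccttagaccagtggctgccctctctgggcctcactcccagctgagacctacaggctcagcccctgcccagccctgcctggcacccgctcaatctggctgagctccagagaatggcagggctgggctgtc

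The letters of 3 elements were searched on both strands, with overlapping matches counted. The antioxidant response element, bound by NRF2, was written TGACNNNGC. It matched once in the GSTP1 window, starting 66 bases before the start site. The core of the aryl hydrocarbon receptor element, GCGTG, matched once in the GSTM3 window, 127 bases before its start. The windows of CYP39A1 and ALDH3B1 hold neither. In windows that also take in 50 bases after the start, GCGTG was in 36.3% of 27305 RefSeq promoters, in 27.1% of the 96 enzymes with a promoter in the table and in 28.6% of the 28 expressed ones. TGACNNNGC was in 13.6%, 14.6% and 17.9% of them. The direct repeat bound by PPAR with RXR, written AGGTCA, any base, AGGTCA, was in 6 of all promoters and in none of the enzymes'. A match describes letters only.

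Some enzymes spread widely inside groups. ALDH3A2 and ALDH4A1 were chosen here after their values were seen. ALDH3A2, which oxidises fatty aldehydes, had 33.7, 55.3, 36.9 and 59.1 CPM in control a to d, 48.0, 45.5, 53.6 and 35.2 CPM in PFBA and 28.6, 44.4, 29.3 and 49.0 CPM in PFHxA. Its within-group coefficient of variation was 24.3%, which is 7.05 times what counting alone gives at this depth. In control and in PFHxA libraries b and d were high and a and c low, but the letters are only column names, and in PFBA the low library was d.

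ALDH4A1, which breaks down the proline intermediate that ALDH18A1 makes, had 1 low library in each group. These were control b at 17.9 CPM, PFBA d at 17.3 CPM and PFHxA a at 17.4 CPM, and the other 9 libraries lay between 24.9 and 29.7 CPM. CYP20A1 was low in PFHxA a alone, at 9.78 CPM against 15.1 to 18.5 CPM elsewhere. CYP2S1 ran from 4.20 CPM in PFHxA d to 11.2 CPM in PFHxA a, with a within-group coefficient of variation of 31.8%. For ALDH4A1 41.7% of 75-base windows also occur in another annotated gene, and for the others of these 4 genes none do.

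**Figure D5:**
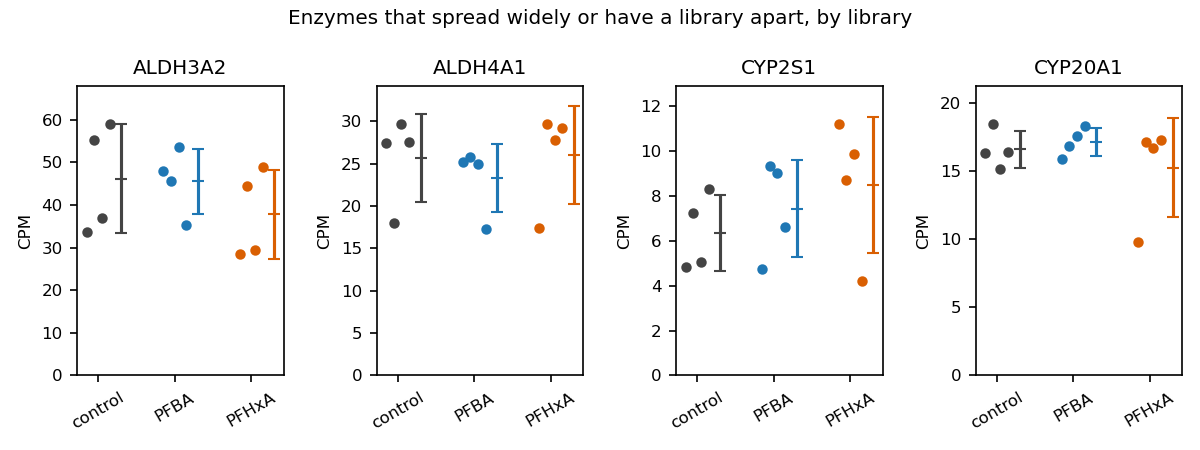
CPM of ALDH3A2, ALDH4A1, CYP2S1 and CYP20A1 in each library of the 3 groups, on axes that start at 0, with the group mean and SD (n = 4) beside the points. Each group has 1 low library of ALDH4A1 near 17 CPM, and ALDH3A2 splits into high and low libraries in control and PFHxA.

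The genes that work with these enzymes were counted in the same fit. Of 101 genes in the 6 lists 78 were tested. With PFBA 0 passed (edgeR), and 8 reached an unadjusted p under 0.05, which is 10.3% beside 9.86% of all tested genes. With PFHxA 9 passed against control, 6 higher and 3 lower, which is 11.5% beside 14.9% of all tested genes. Against PFBA 5 passed, 2 higher and 3 lower, 6.41% beside 10.9%. By list, PFHxA against control called 3 of 13 tested receptors and regulators, 2 of 10 CYP partners, 2 of 26 other phase I enzymes, 2 of 14 genes of cofactor supply, 0 of 13 other phase II enzymes and 0 of 2 tested genes of other CYP families.

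Among those that rose with PFHxA against control, PPARD, a nuclear receptor for fatty acids, had 94.2 ± 6.46 CPM in control and 110.4 ± 3.28 CPM in PFHxA (SD, n = 4 each; 0.23 log2, adjusted p = 0.0101 by edgeR). RXRA, the partner of many nuclear receptors, rose by 0.18 log2 (adjusted p = 0.0154 by edgeR). The genes that fell were ESD, an esterase, from 85.6 ± 9.71 to 66.0 ± 2.88 CPM (-0.37 log2, adjusted p = 0.00721 by edgeR), UGP2, which makes UDP-glucose (-0.29 log2, adjusted p = 0.00761), and CBR4, a carbonyl reductase (-0.25 log2, adjusted p = 0.0340). PPARD and RXRA have transcripts of 59.0% and 60.6% GC, and the 3 that fell of 34.0% to 38.9% GC. With the GC and length trend removed none of these 5 passed, and CBR4 was at -0.00098 log2.

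AHR, named after its values were seen, was the only gene of the 6 lists that passed with the trend removed. It had 1.26, 2.08, 2.48 and 1.98 CPM in control a to d, 3.74, 3.02, 3.95 and 3.01 CPM in PFBA and 3.17, 3.12, 2.63 and 3.46 CPM in PFHxA. All libraries of both acids lay above all controls. With PFBA the fitted difference was larger, at 0.82 ± 0.187 log2 (SE), but did not pass (adjusted p = 0.297 by edgeR). With PFHxA it rose by 0.67 ± 0.189 log2 (SE, adjusted p = 0.0306 by edgeR) and by 0.80 log2 with the trend removed (adjusted p = 0.0473). The call was lost in 5 of the 12 fits that leave out 1 library (control a or d, PFHxA a, b or d). Of the 9 other settings that gave AHR an adjusted p, 3 lost the call. Those were the fits of only the 8 libraries compared, with a block for column letter, and with the trend removed and control d left out. The last gave an adjusted p of 0.0970 by edgeR. The AHR target CYP1B1 was at 0.04 log2 with PFHxA and 0.19 log2 with PFBA, and neither passed. In the same list as AHR, AHRR was at 0.22 log2 with PFHxA and 0.39 log2 with PFBA, with an SE of 0.50 in each. TIPARP was at -0.13 log2 with PFHxA and 0.06 log2 with PFBA, and neither gene passed. The effect of AHR on these genes was not tested.

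Against PFBA, POR rose with PFHxA from 55.8 ± 5.31 to 66.6 ± 1.45 CPM (SD, n = 4 each; 0.25 log2, adjusted p = 0.0225 by edgeR), and PPARD rose by 0.20 log2 (adjusted p = 0.0228). UGP2 (-0.33 log2), ESD (-0.35 log2) and AKR1C1, an aldo-keto reductase (-0.38 log2, adjusted p = 0.0206), fell. None of the 5 passed with the trend removed. POR also passed as higher with PFHxA against control, where its mean was 56.4 CPM (0.24 log2, adjusted p = 0.0247 by edgeR). That call too was lost with the trend removed. Leaving out 1 library at a time, the call of POR between the acids was lost in 6 of 12 fits (PFBA a, c or d, PFHxA b, c or d). That of PPARD between the acids was lost in 4 (PFBA c or d, PFHxA b or c). AKR1C1 also lost its call in 4 (PFBA a or c, PFHxA b or d), and CBR4 against control in 6 (control a, b or d, PFHxA b, c or d).

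The 3 tested genes whose log2 CPM ran most like that of GSTM3 over the 12 libraries were CHMP5 (r = 0.93), TOMM5 (r = 0.92) and PAQR3 (r = 0.92). The points share library, depth and GC trend, and the values are given as a description.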

How the data were processed

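Total RNA of RPMI2650 cells was sequenced in 12 libraries on an Illumina instrument, per the labels' protocols. The authors deposited raw read counts per gene in 1 table, from alignments with HISAT2 2.0.4 to GRCh38 per the submitters' processing notes. No source used here gives the counting program, the annotation release or the strandedness, so reads of overlapping or antisense genes cannot be told apart. Column prefixes were read as control, PFBA and PFHxA. The letters in column names could not be matched to sample numbers, so libraries were assigned by group. The table's 12 FPKM columns were not used, and levels planned on FPKM were computed as CPM per kilobase of merged exons.

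Counts were fitted in R 4.3.3 with edgeR 4.0.16 (filterByExpr at a minimum count of 10, TMM scaling, robust quasi-likelihood, group as the only term, 12 libraries in 1 fit), after checks on simulated data. The first criterion of these checks, on the share of true differences recovered, was not met. It was replaced, after this was seen, by criteria on sign, size and false calls. An enzyme that did not pass may therefore still differ. Tests were two-sided, CPM used TMM-scaled totals, and log2 CPM had a prior count of 2. Alternatives used DESeq2 1.42.0, limma 3.58.1, other scalings and filters, fits of 8 libraries, splines over GC content and length (5 degrees of freedom, GENCODE 29, longest transcript), a block for column letter and leaving out each library. Python 3.11.15 and matplotlib 3.10.9 made the summaries and figures. Promoters are from RefSeq.

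The members and lists were chosen with earlier results of these data known. Named enzymes are those that passed, the 2 highest per family by CPM per kilobase (planned on FPKM), the 3 smallest p per comparison and the 2 nearest the expression threshold on each side. From the accompanying lists the 3 smallest p per direction were taken; some items are not reported here. All other enzymes named, among them the remaining expressed CYPs, the enzymes at or near 0, those whose groups did not overlap and those of wide spread, were chosen after their values were seen, as were AHR and the other genes given as levels only.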

Additional observations from a re-analysis of the deposited data

Results flagged for a closer look

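In 7 of 54 groups of 4 libraries looked at for the named enzymes, 1 library stood apart from the other 3 by a gap above Dixon's 95% limit, where chance alone marks about 1 in 20 groups. The 54 groups share the same libraries and are not independent, so these numbers are not a test. ALDH3B1 had 2.47 CPM in control a against 1.77 to 1.87 CPM in the other controls, and without that library its change with PFHxA was -0.61 log2 (adjusted p = 0.120, edgeR). ALDH18A1 had 251.5 CPM in PFHxA a against 273.8 to 278.3 CPM. The same library held 55.0 CPM of GSTO1 against 61.7 to 62.4 CPM, and 9.78 CPM of CYP20A1 against 16.7 to 17.3 CPM. ALDH9A1 had 100.3 CPM in control b against 105.7 to 106.8 CPM. UGT3A2 had 12.8 CPM in control d against 16.7 to 17.4 CPM. CYP2D6 had 0.647 CPM in control c against 0.746 to 0.761 CPM, a gap smaller than 3 counts in 1 library (0.137 to 0.175 CPM).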

How the results depend on the processing

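For PFBA against control the count of enzymes that passed was 0 under all alternatives run, and the count of all genes was 44 by DESeq2, 2 with no filter and with 8 libraries, 0 by limma-voom, with the letter block and with the GC and length trend removed without control d, and 0 to 4 with 1 library left out, against 1. For PFHxA against control, enzymes numbered 1 with 8 libraries, and 0 with no filter, with the letter block, with the trend removed and with the trend removed without control d (an alternative chosen after seeing the data), and 0 to 3 with 1 library left out. All genes numbered 433 with the trend removed, 223 also without control d, and 1523 to 2396 with 1 library left out, the lowest without PFHxA b, against 2466. For PFHxA against PFBA, enzymes numbered 0 with the trend removed, with or without control d, and 0 to 2 with 1 library left out, and all genes 146, 200 and 1035 to 2187, against 1806. The fits by DESeq2 called ALDH1B1 and GSTM3 for PFHxA against control. The count of expressed enzymes was 33 to 42 with mean CPM of 2 or 0.5 as threshold and 28 per kilobase of merged exons; the planned FPKM threshold was not run. With the trend removed and control d left out CBR4 turned to 0.018 log2. The cause of these shifts was not tested. Same-letter libraries of different groups correlated by -0.0896 to 0.0625, and those of different letters by -0.0557 to 0.0667. No pairing by letter was seen over the tested genes, and no source used here says whether such pairing exists. With the replicate block GSTP1 between the acids kept its call and AHR lost its own (adjusted p = 0.0513 by edgeR). The planned protein comparison of paralogs was not run. The 76 enzymes that did not enter the test have no fold change here.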
